A study of Mus musculus with 12 samples.

Results

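Mirtazapine, a tetracyclic antidepressant, was set against 3 other antidepressants in primary neuronal cultures from brains of ICR (CD-1) mouse embryos. Its 2 arrays (50 µM) were compared with 6 arrays of other drugs, 2 each of amitriptyline (5 µM), citalopram (10 µM) and imipramine (5 µM), chosen by the titles out of 12 arrays in the series. The others were 2 arrays of duloxetine (0.1 µM) and 2 of control, for which the sources used here give no treatment or vehicle. Every culture was of the same outbred stock and was grown in serum-free medium with B27. Drugs were given on day 3 in vitro for 48 h, and cultures were collected on day 5. The concentrations differ between the drugs, so drug and concentration cannot be told apart in any comparison here. The labels do not say whether replicates were separate cultures or pools of embryos, and p-values then measure only the spread between these samples, which may be technical.

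Of 41345 probe sets on the array, 23521 carried exactly 1 gene symbol. The 18495 of them with a mean value of at least 5.72 on the log2 scale were tested, and they represent 17469 genes. The remaining 5026 named probe sets were dimmer and were not tested. Values are robust multi-array average (RMA) levels in log2 units, so a difference of 1 is a doubling of signal, and levels are compared between arrays and not between genes. With 2 arrays a group, the 95% interval of mirtazapine minus the mean of the other 3 drugs reached a median of 0.23 log2 units to either side.

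Amitriptyline and imipramine are tricyclics that block reuptake of serotonin and noradrenaline, and citalopram is a selective serotonin reuptake inhibitor. Mirtazapine is not a reuptake blocker: it is known as an antagonist of alpha-2 adrenergic receptors, of the 5-HT2 and 5-HT3 classes of serotonin receptor and of the histamine H1 receptor. Embryonic cultures of this age hold mostly young neurons that are extending axons, with dividing progenitors and early glia among them. The 7 neuronal markers (Tubb3, Map2, Rbfox3, Snap25, Syt1, Dcx and Stmn2) averaged 12.14 and 12.04 on the mirtazapine arrays and 12.09 to 12.16 on the arrays of the other 3 drugs.

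The mirtazapine arrays were unlike each other. Over the named probe sets, the slope of replicate 2 on the average of the remaining arrays was 0.924, against 0.998 for replicate 1 and 0.993 to 1.024 for all others except duloxetine replicate 2 (0.938). Across probe sets, mirtazapine replicate 2 correlated at 0.9867 with duloxetine replicate 2 and at 0.9837 with mirtazapine replicate 1, as a description of these arrays. The SD between the 2 arrays was 0.211 for mirtazapine and 0.249 for duloxetine, against 0.094 to 0.133 in the other groups. Values on the single mirtazapine arrays are therefore given beside many of the results below, and the fit pooled the spread over all 12 arrays.

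The first question was whether any gene set mirtazapine apart from the other 3 drugs. In limma with Benjamini-Hochberg adjustment over 18495 probe sets, 0 probe sets passed an adjusted p of 0.05 (0%), and the lowest adjusted p was 0.0804. At an unadjusted p under 0.05 there were 3749 probe sets, of which 1615 were higher under mirtazapine (8.73%) and 2134 were lower (11.5%). Against each drug alone, 0 probe sets passed as well, with a lowest adjusted p of 0.496 against amitriptyline, 0.295 against citalopram and 0.17 against imipramine. At an unadjusted p under 0.05 these pairs gave 1849, 1828 and 3217 probe sets. Both mirtazapine arrays lay below all 6 arrays of the other drugs at 2699 probe sets (14.6%) and above all 6 at 1790 (9.68%).

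The count depended on which arrays entered the fit. Without the duloxetine arrays 144 probe sets passed, 23 higher and 121 lower under mirtazapine. With mirtazapine replicate 2 as the only mirtazapine array, 887 passed, 319 higher and 568 lower, whereas with replicate 1 as the only one 0 passed. In these fits the spread of the single remaining array was taken from the other groups.

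Genes with the lowest p-values on the lower side were led by neuropeptides, a peptide receptor and markers of neuron subtypes. By the fixed rule these were Cck, Tacr3, Calb2, Grp, Lpl, Cyp7b1, Dctpp1, Slc44a5, Adgrg2, Kcnab1, S100a10, Smim26, Snrpd1, Shisa6 and Grin3a. At all 15, both mirtazapine arrays lay below all 6 arrays of the other drugs, a property that the choice by p-value favours. Their differences ran from −0.95 to −0.42, from −0.75 to −0.36 on mirtazapine replicate 1 and from −1.14 to −0.42 on replicate 2, and adjusted p ran from 0.0804 to 0.141 in limma.

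**Figure D1:**
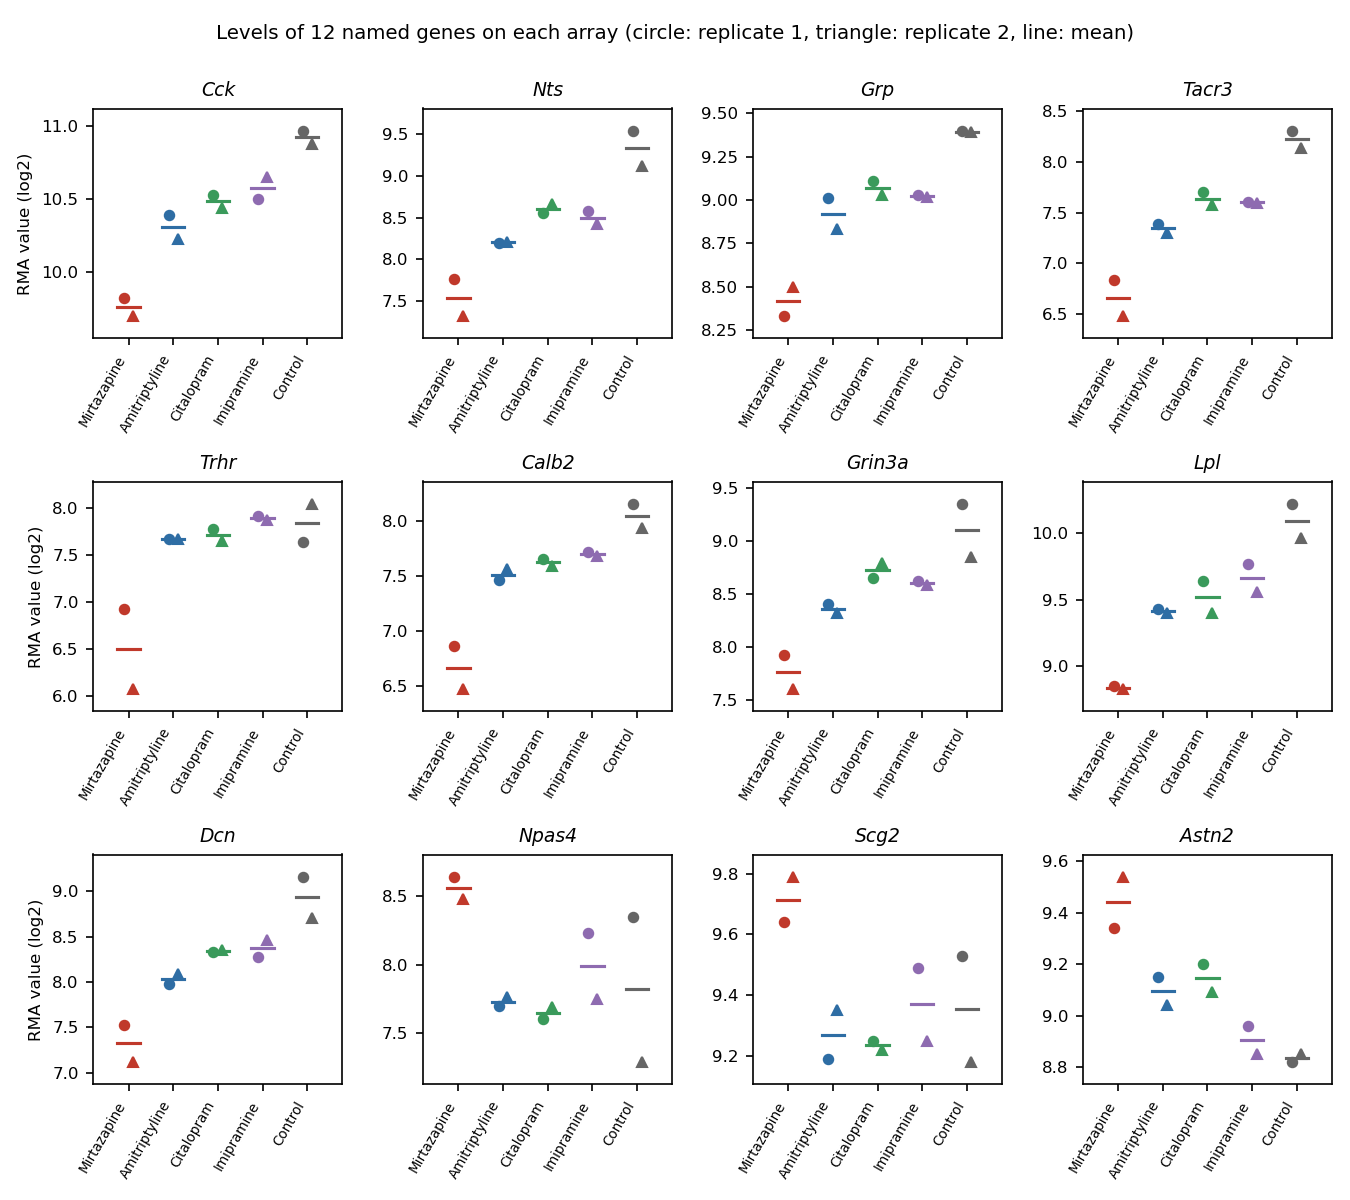
RMA values (log2, vertical axes, scaled to each gene) of 12 named genes on the arrays of mirtazapine, amitriptyline, citalopram, imipramine and control; circles are replicate 1, triangles replicate 2 and lines the mean of 2 arrays. In the first 9 panels, among them Cck at 9.82 and 9.7, both mirtazapine arrays lie below all arrays of the other 3 drugs and of control, and in the panels of Npas4, Scg2 and Astn2 they lie above them.

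Cck encodes cholecystokinin, a peptide of cortical interneurons and projection neurons. It read 9.82 and 9.7 on the mirtazapine arrays, 10.23 to 10.65 with a median of 10.47 on those of the other 3 drugs, and 10.97 and 10.88 in control. The mirtazapine arrays were the lowest of these groups, with no overlap, and control was the highest. The difference from the other 3 drugs was −0.70 ± 0.09 (SE), a 1.62-fold lower signal, at an adjusted p of 0.0804 in limma. Against control, Cck fell by 1.16 under mirtazapine (adjusted p = 0.00643), while the other 3 drugs differed from control by −0.47 (adjusted p = 0.065).

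Tacr3, the neurokinin B receptor, read 6.84 and 6.48 under mirtazapine, 7.3 to 7.7 with a median of 7.59 under the other 3 drugs, and 8.31 and 8.14 in control. Mirtazapine replicate 2 was the lower of its pair, and the groups did not overlap. The difference from the other 3 drugs was −0.87 ± 0.11 (SE; adjusted p = 0.0804, limma). Tacr3 was called in both comparisons with control, which share the control arrays: it fell by 1.56 under mirtazapine (adjusted p = 0.00643) and by 0.70 under the other 3 drugs (adjusted p = 0.0476).

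The promoters of these 2 lead genes, whose signals were low together, are shown from RefSeq (GRCm38.p6) as the 250 bases before and 50 bases after the annotated start, 5′ to 3′ on the gene's strand. Capitals mark TGACG or its reverse complement CGTCA, the core of the cAMP response element, searched on both strands.
Cck, chr9:121495645-121495944, minus strand: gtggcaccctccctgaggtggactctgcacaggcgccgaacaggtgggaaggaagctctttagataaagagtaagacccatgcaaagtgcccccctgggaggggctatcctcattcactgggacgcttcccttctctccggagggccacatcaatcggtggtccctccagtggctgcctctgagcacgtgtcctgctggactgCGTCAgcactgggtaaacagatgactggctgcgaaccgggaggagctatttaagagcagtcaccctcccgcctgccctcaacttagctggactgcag
Tacr3, chr3:134828757-134829056, plus strand: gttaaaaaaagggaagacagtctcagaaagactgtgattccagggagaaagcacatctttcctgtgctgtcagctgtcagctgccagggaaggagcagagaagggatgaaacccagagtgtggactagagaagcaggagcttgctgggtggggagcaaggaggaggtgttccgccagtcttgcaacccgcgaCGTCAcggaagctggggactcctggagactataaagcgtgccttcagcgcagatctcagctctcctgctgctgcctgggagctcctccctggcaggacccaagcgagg
Each holds 1 match, whose first base lies 47 bases before the start in Cck and 58 bases before it in Tacr3. Of all 32851 promoters of this length in the table, 20.8% hold the motif. Of the 15 lower genes, 7 have an entry, and only Cck and Tacr3 of those hold it.

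Other peptide genes followed the same order of groups. Nts (neurotensin) read 7.76 and 7.32 under mirtazapine, 8.2 to 8.66 with a median of 8.48 under the other 3 drugs, and 9.54 and 9.12 in control. Grp (gastrin-releasing peptide) read 8.33 and 8.5 under mirtazapine, 8.83 to 9.11 with a median of 9.02 under the other 3 drugs, and 9.4 and 9.39 in control. In both genes the groups were separate, with mirtazapine lowest. The differences from the other 3 drugs were −0.90 ± 0.17 for Nts (SE; adjusted p = 0.146) and −0.59 ± 0.08 for Grp (adjusted p = 0.107), both in limma. Against control, Nts fell by 1.79 (adjusted p = 0.0112) and Grp by 0.98 (adjusted p = 0.00772) under mirtazapine.

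The neuropeptide list as a whole did not lean that way. Of its 26 tested genes, 10 had lower and 16 higher values under mirtazapine than under the other 3 drugs, with a median difference of 0.07, beside −0.03 over all tested probe sets. Scg2, which encodes a precursor of secretory granule peptides, was the most positive: 9.64 and 9.79 under mirtazapine, 9.19 to 9.49 with a median of 9.25 under the other 3 drugs, and 9.53 and 9.18 in control. Its difference of 0.42 ± 0.11 (SE) had an adjusted p of 0.193 in limma. Both mirtazapine arrays were above all of these, and control replicate 1 was above the arrays of the other 3 drugs as well.

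Among 24 neuropeptide receptors, 7 had both mirtazapine arrays below all 6 arrays of the other drugs (14.6% of all probe sets did) and 0 had both above (9.68% did). The median of the list was 0.00. Trhr, the receptor for thyrotropin-releasing hormone, gave the lowest value, −1.26 ± 0.21 (SE; adjusted p = 0.141, limma). It read 6.93 and 6.07 under mirtazapine, 7.65 to 7.92 with a median of 7.72 under the other 3 drugs, and 7.64 and 8.05 in control. The gap was −0.83 on mirtazapine replicate 1 and −1.69 on replicate 2, so the size rests largely on the second array while the direction holds on each. Unlike Cck, Nts and Tacr3, Trhr lay within 0.1 of control under the other 3 drugs (difference −0.08), and it fell by 1.34 under mirtazapine against control (adjusted p = 0.04). Oprd1, the delta opioid receptor, was the most positive of the list at 0.23, made of −0.01 on mirtazapine replicate 1 and 0.47 on replicate 2.

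Calb2 encodes calretinin, a calcium-binding protein of Cajal-Retzius cells and of some interneurons. It read 6.86 and 6.47 under mirtazapine, 7.46 to 7.72 with a median of 7.62 under the other 3 drugs, and 8.16 and 7.94 in control. The arrays were in the same order as for Cck and did not overlap. The difference from the other 3 drugs was −0.95 ± 0.12 (SE; adjusted p = 0.0804, limma), and against control Calb2 fell by 1.38 (adjusted p = 0.00841). The list of Cajal-Retzius and early born neurons as a whole did not lean that way. Of its 18 tested genes, Calb2 among them, 7 were negative and 11 positive, with a median of 0.09. At 2 of the 18 both mirtazapine arrays lay below all 6 others. Barhl2 was the most positive at 0.25 (0.05 on mirtazapine replicate 1 and 0.46 on replicate 2).

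Grin3a, a modulatory NMDA receptor subunit, read 7.92 and 7.6 under mirtazapine, 8.32 to 8.79 with a median of 8.6 under the other 3 drugs, and 9.35 and 8.85 in control. Both mirtazapine arrays lay below all the others. Its difference from the other 3 drugs was −0.80 ± 0.13 (SE; adjusted p = 0.141, limma), and against control it fell by 1.34 (adjusted p = 0.0121). Of 20 tested glutamate receptor genes 12 were negative, with a median of −0.12. Shisa6, an auxiliary protein of AMPA receptors, gave −0.70 (−0.47 on mirtazapine replicate 1 and −0.94 on replicate 2). Kcnab1, an auxiliary subunit of voltage-gated potassium channels, gave −0.63 with −0.66 and −0.60 on the single arrays, and it lay within 0.1 of control under the other 3 drugs (difference 0.08).

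Genes of lipid handling were among the 15 too. Lpl, the lipoprotein lipase, read 8.85 and 8.83 under mirtazapine, 9.4 to 9.77 with a median of 9.5 under the other 3 drugs, and 10.22 and 9.96 in control. The 2 mirtazapine arrays nearly coincided here, below all the others. The difference from the other 3 drugs was −0.69 ± 0.10 (SE; adjusted p = 0.107, limma), and a second, dimmer Lpl probe set gave −0.40. Cyp7b1, an oxysterol 7-alpha-hydroxylase, gave −0.62, with −0.58 and −0.65 on the single arrays. Slc44a5, of the choline transporter-like family, gave −0.67, with −0.48 and −0.88.

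Dctpp1 (a dCTP pyrophosphatase), Smim26 and Snrpd1 (a core protein of the spliceosome) stood, like Kcnab1, within 0.1 of control under the other 3 drugs, at 0.02, −0.09 and −0.06. Dctpp1 read 9.33 and 9.31 under mirtazapine, 9.75 to 10 with a median of 9.78 under the other 3 drugs, and 9.82 and 9.83 in control. It fell by 0.50 against control (adjusted p = 0.0342, limma). A second Snrpd1 probe set gave −0.76 against the other 3 drugs, with −0.26 on mirtazapine replicate 1 and −1.27 on replicate 2. Smim26 read 7.68 and 7.72 under mirtazapine and 8.05 and 7.72 in duloxetine cultures, so duloxetine replicate 2 was as low as mirtazapine. S100a10, the annexin A2 partner p11, gave −0.54 against the other 3 drugs (−0.53 and −0.55 on the single arrays) and fell by 0.86 against control (adjusted p = 0.0121), and Adgrg2, an adhesion G protein-coupled receptor, gave −0.42 (−0.36 and −0.49) and fell by 0.62 (adjusted p = 0.0166).

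The 15 genes of lowest p on the higher side were dimmer: their mean level over all arrays had a median of 6.45, against 8.55 for the 15 lower ones. They were Olfm5, Barx2, G6pc, Sec14l5, Speer4c, Icam2, Astn2, Irs1, Rpl17-ps9, Agt, Kcng2, C77080, Wnt10b, Arid3b and Dcpp2. Differences ran from 0.33 to 0.92, from 0.27 to 0.70 on mirtazapine replicate 1 and from 0.34 to 1.13 on replicate 2, with adjusted p from 0.141 to 0.173 in limma. Speer4c, Dcpp2 and the pseudogene Rpl17-ps9 have near-identical relatives, so their signals may be shared with those. Gabre, a GABA-A receptor subunit named through the comparison with imipramine, gave 0.41 and 0.31 and 0.51 on the single arrays.

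Barx2, a homeobox gene, read 6.36 and 6.62 under mirtazapine, 5.79 to 6.15 with a median of 5.94 under the other 3 drugs, and 5.8 and 5.84 in control. Both mirtazapine arrays were above those groups, but the duloxetine arrays at 6.27 and 6.47 overlapped them. It rose by 0.67 under mirtazapine against control (adjusted p = 0.0259, limma). G6pc, a glucose-6-phosphatase subunit, read 6.34 and 6.45 under mirtazapine, 5.76 to 6.08 with a median of 5.89 under the other 3 drugs, and 5.6 and 5.76 in control, and it rose by 0.72 (adjusted p = 0.0217). Barx2 and G6pc had mean levels of 6.09 and 5.96, in the dimmest quintile of tested probe sets (5.72 to 6.51). In that quintile both mirtazapine arrays lay above all 6 others at 20.9% of probe sets. Its median differences were 0.07 on replicate 1 and 0.28 on replicate 2. Olfm5, of the olfactomedin family, gave 0.58 against the other 3 drugs (0.47 and 0.69 on the single arrays). It rose by 0.60 against control (adjusted p = 0.0451, limma).

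Astn2, which takes part in the migration of young neurons along glia, was the brightest of the 15. It read 9.34 and 9.54 under mirtazapine, 8.85 to 9.2 with a median of 9.06 under the other 3 drugs, and 8.82 and 8.85 in control. Both mirtazapine arrays lay above all of these. Its difference from the other 3 drugs was 0.39 ± 0.08 (SE; adjusted p = 0.166, limma), and it rose by 0.60 against control (adjusted p = 0.024). The 2 probe sets of Irs1, the insulin receptor substrate, disagreed: the one of lower p gave 0.37 and the brighter one −0.18. Arid3b also had a second probe set, which gave 0.04.

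**Figure D2:**
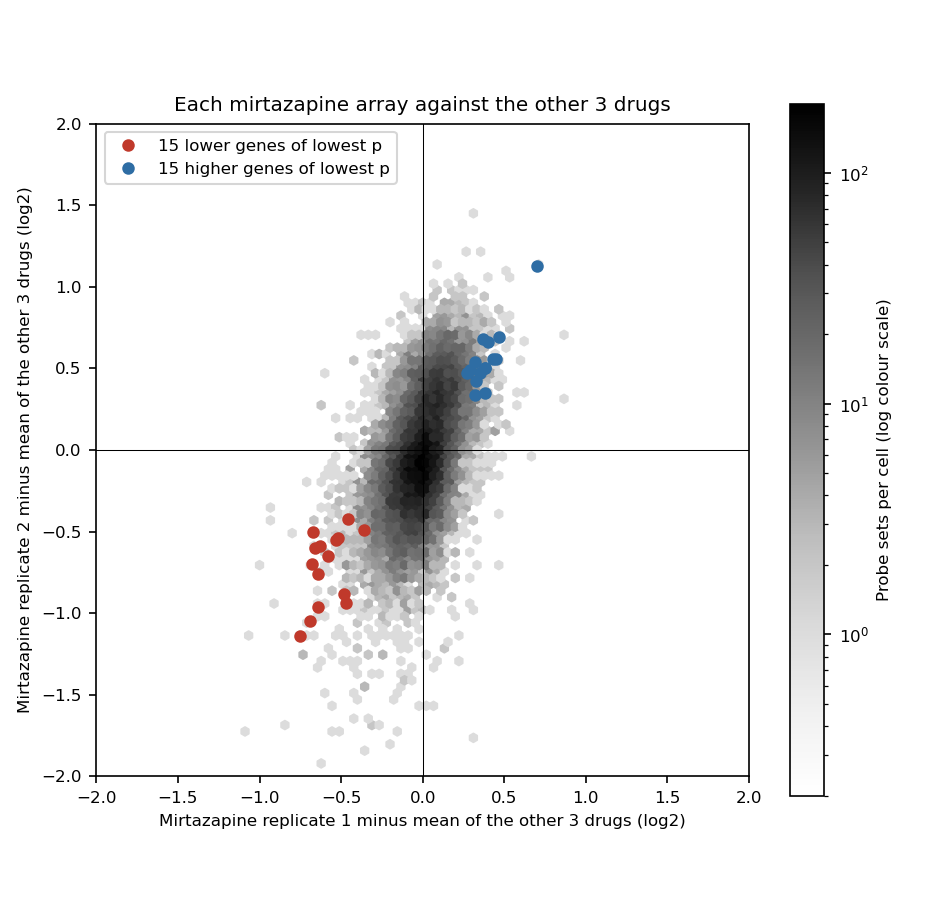
Difference of each mirtazapine array from the mean of the other 3 drugs (log2) over 18495 probe sets, with replicate 1 on the horizontal and replicate 2 on the vertical axis; grey cells show the number of probe sets on a log colour scale. The 15 lower genes (red) and the 15 higher ones (blue) lie away from 0 on both axes, and the cloud is taller than wide (SD 0.346 on replicate 2 and 0.149 on replicate 1).

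Taken singly, the mirtazapine arrays differed in how far they departed from the other 3 drugs. The SD of the difference over all tested probe sets was 0.149 for replicate 1 and 0.346 for replicate 2. Differences past 0.5 log2 units were found at 93 lower and 17 higher probe sets on replicate 1, at 1396 lower and 1228 higher ones on replicate 2, and on both arrays at 55 lower and 11 higher ones. Replicate 1 lay below all 6 arrays of the other drugs at 3758 probe sets (20.3%) and above them at 3100 (16.8%). Replicate 2 did so at 7836 (42.4%) and 5575 (30.1%).

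The direction went with the brightness of the probe set. In the dimmest quintile (mean 5.72 to 6.51) the median difference was 0.07 on mirtazapine replicate 1 and 0.28 on replicate 2, and both arrays lay above all 6 others at 20.9% of probe sets and below at 2.32%. In the brightest quintile (9.54 to 13.49) the medians were −0.01 and −0.15, and both lay above at 2.38% and below at 18.2%. Replicate 2 had a lower quartile of 5.57 and an upper quartile of 8.2 over all deposited probe sets, the narrowest spread of the 12 arrays. When all arrays were rescaled to 1 slope the median difference was 0.02 in place of −0.03, and 49.4% of probe sets with an unadjusted p under 0.05 were lower under mirtazapine, against 56.9% without rescaling.

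**Figure D3:**
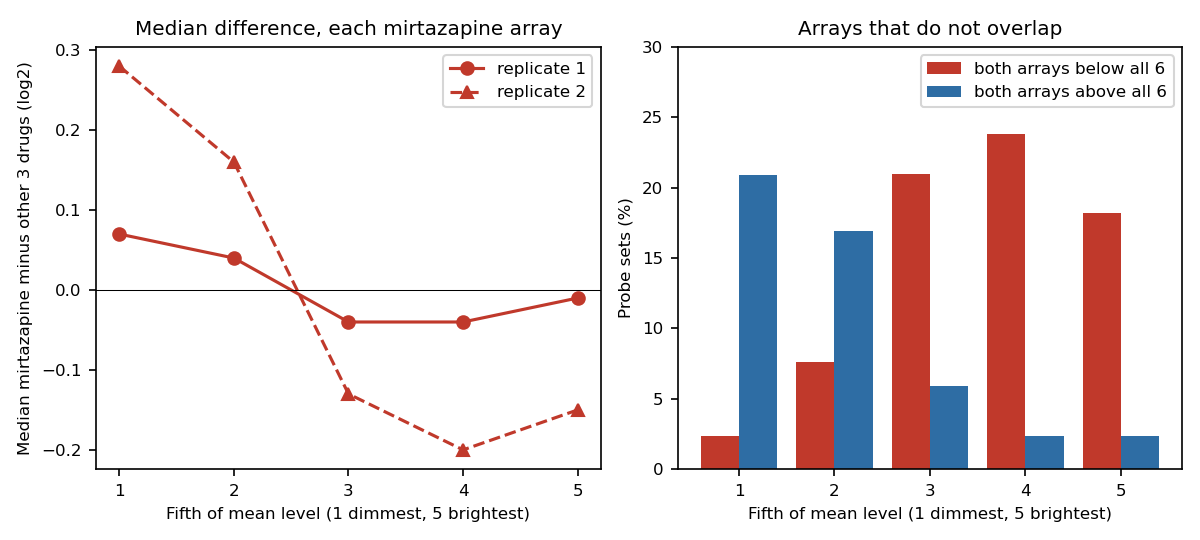
Left, median difference of each mirtazapine array from the other 3 drugs (log2) by quintile of mean level, dimmest to brightest; right, percent of probe sets at which both mirtazapine arrays lie below (red) or above (blue) all 6 arrays of the other drugs. Both arrays go from positive to negative medians, replicate 2 from 0.28 to −0.15, and dim probe sets are more often above.

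The second question was how mirtazapine stood in the mean response of the other 3 drugs. None of the 3 was fitted alone against control, so a gene called for their mean need not be shared by all 3. Against control the mean of the other 3 drugs raised 21 probe sets (0.114%) and lowered 17 (0.0919%) in limma, 38 together (0.205%), with the same threshold. The 6 arrays that chose these 38 genes also enter the difference between mirtazapine and the other drugs and it is given as a description. For the 21 higher genes the median difference from control was 0.87 under mirtazapine and 0.93 under the other 3 drugs, and mirtazapine minus the other 3 ran from −0.40 to 0.07 with a median of −0.07. Of the 21, 2 had both mirtazapine arrays below all 6 others, beside 14.6% of all probe sets, and 0 had both above, beside 9.68%.

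Ptgs2, the inducible prostaglandin synthase, read 9.88 and 9.26 under mirtazapine, 9.8 to 10.36 with a median of 9.92 under the other 3 drugs, and 7.45 and 8.11 in control. Mirtazapine replicate 1 lay within the range of the other drugs and replicate 2 below it, and both lay above control. It rose by 1.79 under mirtazapine (adjusted p = 0.0194, limma) and by 2.19 under the other 3 drugs (adjusted p = 0.00975). Hmox1, the inducible heme oxygenase, gave −0.07 between mirtazapine and the other drugs, with 0.10 on replicate 1 and −0.24 on replicate 2. The chemokine gene Cxcl2 gave −0.13 (0.01 and −0.28), Ostn (osteocrin) −0.17 (−0.14 and −0.21), the early response gene Ier3 −0.15, the stress transcription factor Atf3 0.01 and the collagen receptor Ddr2 0.03. Under mirtazapine all 6 rose against control, by 0.68 (Ier3) to 1.16 (Hmox1), with adjusted p from 0.0166 to 0.0252.

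**Figure D4:**
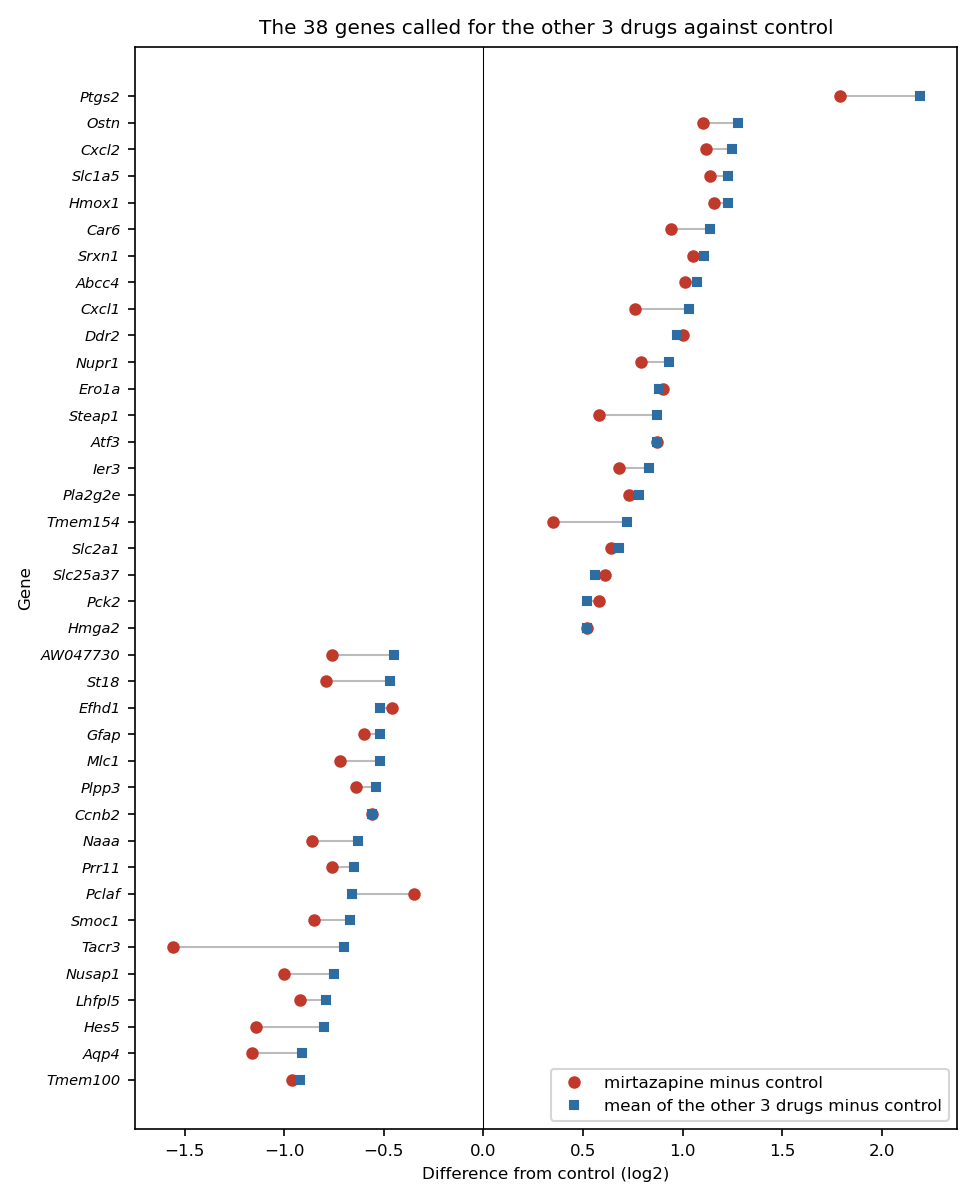
Difference from control (log2, horizontal axis) of mirtazapine (red circles) and of the mean of the other 3 drugs (blue squares) for the 38 genes called for the other 3 drugs, ordered by the latter; both share the control arrays. Ptgs2 stands at 1.79 and 2.19, and the widest gap is that of Tacr3, at −1.56 under mirtazapine and −0.70 under the other 3 drugs.

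For the 17 lower genes the median difference from control was −0.79 under mirtazapine and −0.65 under the other 3 drugs, and mirtazapine minus the other 3 ran from −0.87 (Tacr3) to 0.31 (Pclaf) with a median of −0.18. Hes5, a Notch target of progenitors, read 8.57 and 8.62 under mirtazapine, 8.8 to 9.08 with a median of 8.96 under the other 3 drugs, and 9.72 and 9.76 in control. The 3 groups were separate. It fell by 1.14 under mirtazapine (adjusted p = 0.00772, limma) and by 0.80 under the other 3 drugs (adjusted p = 0.0225), and a second Hes5 probe set gave 0.05 between mirtazapine and the other drugs. St18, a zinc finger transcription factor, gave −0.31 (−0.34 and −0.29 on the single arrays). The astrocyte water channel Aqp4 gave −0.26 (−0.14 and −0.38) and the astrocyte filament Gfap −0.08 (−0.14 and −0.02). Pclaf, a PCNA-binding factor of dividing cells, had the most positive difference of the 17, of which 3 were positive: 6.65 and 6.73 under mirtazapine, 6.31 to 6.56 with a median of 6.35 under the other 3 drugs, and 7.02 and 7.06 in control. It fell by 0.66 under the other 3 drugs (adjusted p = 0.0281), whereas mirtazapine differed from control by −0.35 (adjusted p = 0.127).

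Against control, mirtazapine raised 43 probe sets (0.232%) and lowered 239 (1.29%), 282 in all (1.52%). The 239 lower ones had a median difference of −0.72 under mirtazapine and of −0.36 under the other 3 drugs, and the 43 higher ones had medians of 0.68 and 0.52. The numbers of calls for mirtazapine and for the mean of 3 drugs rest on 2 and 6 arrays and were not tested against each other. After a second quantile normalization the split for mirtazapine was 95 higher and 210 lower. After rescaling to 1 slope the split for the other 3 drugs was 30 higher and 13 lower. The count for mirtazapine depended on the arrays: 3 probe sets passed without mirtazapine replicate 2, 1523 without replicate 1, 0 without control replicate 1, 98 without control replicate 2, 99 without either amitriptyline array, 43 without either citalopram array, 86 without either imipramine array and 1269 without the duloxetine arrays. So did that for the other 3 drugs: 0 passed without amitriptyline replicate 1, citalopram replicate 2 or control replicate 1, 2 without citalopram replicate 1 or imipramine replicate 1, 8 without amitriptyline replicate 2, 6 without imipramine replicate 2 and 120 without the duloxetine arrays.

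Genes of mitochondrial energy production lay lower under mirtazapine. Of 55 tested genes of oxidative phosphorylation, the respiratory chain and ATP synthase, 50 had a negative difference from the other 3 drugs (55.8% of all probe sets did), 29 had both mirtazapine arrays below all 6 others (52.7%, beside 14.6% of all probe sets) and 0 passed the test. The mean over the 55 genes was 9.76 and 9.72 on the mirtazapine arrays, 9.91 and 9.9 under amitriptyline, 9.9 and 9.9 under citalopram, 9.98 and 9.96 under imipramine, and 9.95 and 9.99 in control. Both mirtazapine arrays were lower than all of these, but duloxetine replicate 2 also read 9.76, against 9.95 for duloxetine replicate 1. The median difference was −0.14 on mirtazapine replicate 1 and −0.22 on replicate 2. In the brightest quintile of level, where the list's median of 10.14 lies, 18.2% of probe sets had both arrays below. After rescaling to 1 slope the medians were −0.11 and 0.01, so that replicate 2 no longer showed a lower level. Then 13 of the 55 genes had both arrays below, beside 2214 of all 18495 probe sets.

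Ndufa1, a small subunit of complex I, was the lowest of that list. It read 7.53 and 7.29 under mirtazapine, 7.83 to 8.15 under the other 3 drugs, 8.06 and 7.36 under duloxetine, and 7.94 and 8.14 in control. Duloxetine replicate 2 lay within the mirtazapine range here too. Cox5a (complex IV) and Atp5h (ATP synthase), picked after their values were seen as those of lowest p, gave −0.42 and −0.40, with −0.44 and −0.41 and with −0.32 and −0.47 on the single arrays. Atp5g1, which encodes the membrane ring subunit of ATP synthase, was the most positive at 0.18, with 0.18 on each mirtazapine array.

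Mitochondrial ribosomal proteins, a family looked up after the first values were seen, had negative differences at 66 of 71 genes, beside 55.8% of all probe sets. At 49 genes both mirtazapine arrays lay below all 6 others (69%), beside 14.6% of all probe sets. In the quintile of level that holds the family's median of 8.59, that share was 23.8%. The family mean was 8.48 and 8.38 on the mirtazapine arrays, 8.63 to 8.73 on those of the other 3 drugs, 8.66 and 8.44 under duloxetine, and 8.68 and 8.71 in control. The mirtazapine arrays and duloxetine replicate 2 stood below the other 9 arrays. The median difference was −0.18 and −0.27 on the single mirtazapine arrays, and −0.16 and −0.22 after rescaling, so here both arrays kept the direction. Mrpl20 gave −0.62 (−0.65 and −0.60) and Mrpl32 −0.72 (−0.56 and −0.88). Mrpl32 read 7.53 on duloxetine replicate 2, against 7.75 and 7.43 under mirtazapine. On the same duloxetine array Mrpl20 read 7.52, below both mirtazapine arrays (7.6 and 7.64). The part of array quality in these shifts was not tested.

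**Figure D5:**
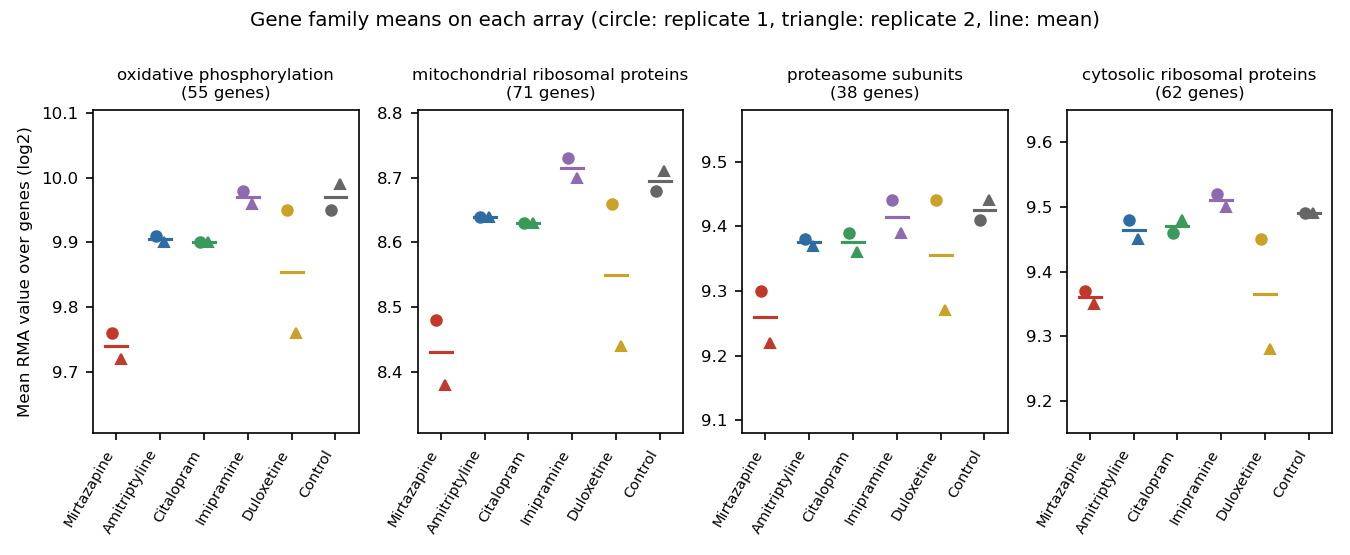
Mean RMA value (log2, vertical axes of equal span) over the tested genes of 4 families on each array; circles are replicate 1, triangles replicate 2 and lines the mean of 2 arrays. Both mirtazapine arrays are below those of amitriptyline, citalopram, imipramine and control in every panel, and duloxetine replicate 2 is low as well, at 9.76 for oxidative phosphorylation.

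Proteasome subunits (38 genes) gave medians of −0.07 and −0.18 on the single mirtazapine arrays, cytosolic ribosomal proteins (62 genes) −0.12 and −0.09, and Sm and Lsm proteins (17 genes), which bind RNA as rings, −0.11 and −0.29. After rescaling, replicate 2 turned positive for the first 2 families, at 0.01 and 0.14, and stayed at −0.15 for the third. A second quantile normalization left replicate 2 at −0.02, −0.01 and −0.10 in the same order. Among protein-coding probe sets in the upper 3 quintiles of level, short genes more often had both mirtazapine arrays below all 6 others. The share was 25.9% in the quintile with the shortest annotated genes (297 to 8366 bases) and 16.1% in the quintile with the longest. The single arrays disagreed on length. From the shortest to the longest quintile the median difference went from −0.06 to 0.00 on replicate 1 and from −0.10 to −0.20 on replicate 2. These families and the split by length were chosen after values were seen and carry no test.

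Axon guidance genes tended to lower values, more so on the second array. Of 42 tested genes 34 were negative, beside 55.8% of all probe sets, with medians of −0.03 on mirtazapine replicate 1 and −0.19 on replicate 2, and 13 had both arrays below all 6 others, beside 14.6% of all probe sets. After rescaling the medians were 0.00 and −0.03. Nrp2, a semaphorin 3 co-receptor, was the lowest at −0.72 ± 0.15 (SE; adjusted p = 0.165, limma). It read 8.54 and 8.02 under mirtazapine, 8.85 to 9.14 with a median of 9 under the other 3 drugs, and 9.61 and 9.19 in control, with no overlap. Nrp1, the other semaphorin 3 co-receptor, gave −0.54 (−0.35 and −0.73). Both fell under mirtazapine against control, by 1.12 for Nrp2 (adjusted p = 0.0234) and by 0.92 for Nrp1 (adjusted p = 0.0378). Unc5c, a netrin receptor, was the most positive at 0.18 (0.25 and 0.11).

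Immediate early genes, which respond to neuronal activity, leaned the other way. Of 35 tested genes 25 were positive, beside 44.1% of all probe sets, 7 had both mirtazapine arrays above all 6 others, beside 9.68%, and the medians were 0.06 and 0.15 on the single arrays. Npas4, an activity-dependent transcription factor of neurons, read 8.64 and 8.48 under mirtazapine, 7.6 to 8.23 with a median of 7.72 under the other 3 drugs, and 8.35 and 7.29 in control. The mirtazapine arrays were above all of these, but the control arrays differed by more than 1 log2 unit between them. Its difference from the other 3 drugs was 0.77 ± 0.23 (SE; adjusted p = 0.204, limma), 0.85 on mirtazapine replicate 1 and 0.69 on replicate 2. Ier2 was the most negative at −0.31.

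Of 19 tested genes in a list of monoamine, histamine and muscarinic receptors, 10 were negative and 9 positive, with a median of −0.07. Htr1a, the 5-HT1A receptor, read 7.49 and 6.99 under mirtazapine, 7.56 to 7.85 with a median of 7.76 under the other 3 drugs, and 7.64 and 7.95 in control. Both mirtazapine arrays were below these, by −0.24 and −0.74 from the mean of the other 3 drugs, at an adjusted p of 0.198 in limma. Htr3b, a 5-HT3 receptor subunit, was the most positive at 0.36 (0.17 and 0.54). Among 13 genes of monoamine uptake and synthesis, Maoa, the monoamine oxidase A, gave −0.46 (−0.30 and −0.62) and the vesicular transporter Slc18a1 gave 0.42 (0.24 and 0.61). Duloxetine replicate 2 read 7.92 for Maoa, beside 8.12 and 7.8 under mirtazapine.

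Markers of other cell types in the cultures were read beside these genes. The 8 astrocyte markers averaged 8.76 and 8.64 on the mirtazapine arrays, 8.65 to 8.95 under the other 3 drugs, and 9.07 and 9.19 in control. The 8 microglia markers averaged 7.35 and 7.45, 7.16 to 7.28, and 7.36 and 7.12 in the same order of groups, and the 8 markers of Cajal-Retzius neurons, 7 of them measured, averaged 7.36 and 7.41, 7.4 to 7.47, and 7.49 and 7.47. For fibroblasts and pericytes the averages were 6.96 and 7.07, 6.9 to 7.07, and 7.23 and 7.15. The 8 measured markers of inhibitory neurons averaged 9.54 and 9.53, 9.3 to 9.47, and 9.16 and 9.3. Microglia and inhibitory neurons were the 2 measured cell types with both mirtazapine arrays outside the range of the other 3 drugs. In each case they lay above it. For microglia, control replicate 1 and duloxetine replicate 2 (7.34, against 7.13 for duloxetine replicate 1) lay above that range too. The microglia markers had a median level of 7.19, in a quintile (6.51 to 7.33) where both mirtazapine arrays lay above all 6 others at 16.9% of probe sets. Fewer cells of a type and less RNA per cell cannot be told apart in such bulk samples. Dcn (decorin), a fibroblast matrix gene, fell by 1.61 under mirtazapine against control (adjusted p = 0.0128, limma) and gave −0.92 against the other 3 drugs, whereas Acta2, the smooth muscle actin of pericytes, gave 0.49.

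Dcn read 7.53 and 7.12 under mirtazapine, 7.98 to 8.46 with a median of 8.3 under the other 3 drugs, and 9.16 and 8.71 in control. Igfbp5, which binds insulin-like growth factors, had a like order, with 9.4 and 9.19 under mirtazapine, 9.61 to 9.99 with a median of 9.87 under the other 3 drugs, and 10.58 and 10.27 in control. It gave −0.56 ± 0.11 (SE; adjusted p = 0.158, limma) against the other 3 drugs and fell by 1.13 against control (adjusted p = 0.0112). Slc17a7, the vesicular glutamate transporter of excitatory neurons, read 9.3 and 9.04 under mirtazapine, 9.28 to 9.73 with a median of 9.54 under the other 3 drugs, and 9.74 and 10.02 in control. Mirtazapine replicate 1 overlapped the lowest of the other drugs' arrays, and the fall against control was 0.71 (adjusted p = 0.0395). Vegfa, a vascular and neural growth factor, read 10.88 and 10.88 under mirtazapine, 10.59 to 10.79 with a median of 10.72 under the other 3 drugs, and 10.29 and 10.37 in control. It rose by 0.55 against control (adjusted p = 0.0217) and gave 0.17 against the other 3 drugs (adjusted p = 0.225).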

How the data were processed

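Transcripts were measured on 12 whole-transcript Affymetrix arrays. What the authors deposited is log2 signal; per the submitters' processing notes, Expression Console and RMA produced them. Version, settings and build: not given in the sources used here. With no counts there is no depth, and precision is limited by the number of arrays. Groups, replicates and concentrations come from the labels.

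Gene names come from the platform's annotation of probe sets: 23521 had exactly 1 symbol, 1814 several and 16010 none. Of the former, 99.2% matched the RefSeq gene table (GRCm38.p6) by gene number and 0 symbols changed. Those with a mean log2 of at least the 30th percentile of all probe sets (5.72) were tested. A list takes each gene by its probe set of highest mean.

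The fit (limma 3.58.1, under R 4.3.3, with eBayes moderation) took all 12 arrays in 1 model (6 residual and 3.83 prior degrees of freedom), with a mean for each of 6 groups and two-sided contrasts. Benjamini-Hochberg adjustment of the p-values ran over 18495 probe sets, with calls under 0.05. Tested on simulated data for mirtazapine minus the mean of the other 3 drugs (18495 probe sets), the fit recovered 50.7% of changes of 0.5 log2 units, 89.6% of changes of 1 and 100% of changes of 2, in a simulation that gave all arrays the same spread.

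The comparison, the named genes and the 32 gene lists were chosen with earlier results of these data known. Named genes are the 15 of lowest p in each direction (predicted genes, clones, small RNAs and olfactory receptors passed over), the 3 of lowest p in each direction for each drug pair, a fixed set, and of each list the lowest and the highest member. Among mirtazapine, the other 3 drugs and control, replicate numbers did not consistently pair the arrays. Over 10 pairs of these groups, deviations of same-numbered arrays correlated at −0.44 to 0.19, and 3 were over 0.1. Duloxetine, whose replicate 2 resembled mirtazapine replicate 2, was not part of this check. Alternatives were no filter, a 50th percentile filter, 1 probe set per gene, trend and robust moderation, array weights, a second quantile normalization, rescaling to 1 slope, a replicate block, a minimum difference of 0.5, only the arrays compared, no duloxetine arrays and each array left out. Fits without combinations of the duloxetine and mirtazapine arrays were chosen after the data had been seen. Plots used Python 3.11.15 and matplotlib 3.10.9.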

Additional observations from a re-analysis of the deposited data

How the results depend on the processing

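For mirtazapine minus the mean of the other 3 drugs, 0 probe sets passed under no filter, a 50th percentile filter, 1 probe set per gene, array weights, a second quantile normalization, rescaling, a minimum difference of 0.5, and with only the 8 arrays compared (lowest adjusted p 0.0501). Trend and robust moderation called 7, all lower: Cck, Tacr3, Calb2, Grp, Lpl, Dctpp1 and Slc44a5. Omitting the duloxetine arrays called 144 and leaving out single arrays gave 0 to 887. With the replicate number as a block, 0 were called here (lowest adjusted p 0.0539, limma). The block gave 210 calls for mirtazapine against control and 19 for the other 3 drugs against control. Outside duloxetine the numbers did not consistently pair the arrays, and in the pairs of drugs 0 were called with the block.

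Fits added after seeing the data, without the duloxetine arrays and mirtazapine replicate 1, called 7156, and 4858, 5190 and 6576 against amitriptyline, citalopram and imipramine and 7092 against control; without the second mirtazapine array instead, 0 and 327 (against control). Against imipramine, trend and robust moderation called 1, and leaving out single arrays gave 0 to 39.

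Mirtazapine against control gave 152 without a filter, 424 with the 50th percentile filter, 95 with array weights, 0 with only its own and the control arrays, 1269 without duloxetine and 0 to 1523 with single arrays left out. The other 3 drugs against control gave 14, 84 and 279 under the first 3 of these, 81 with trend and robust moderation, 68 after a second quantile normalization (44 higher, 24 lower), 287 with only their arrays and in the 3 added fits, 120 without duloxetine and 0 to 120 with single arrays left out. Probe sets with both mirtazapine arrays above all 6 others numbered 883 with the 50th percentile filter, in which dim probe sets are absent, and 1690 to 2503 otherwise; those below numbered 1915 to 2795. Causes were not tested.

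None of the 30 genes of lowest p changed sign in 739 refitted values. At each of these 30 genes both mirtazapine arrays lay beyond all 6 others. Leaving out an array therefore could not change their sign, and most of these values say nothing on stability. Of all 105 named genes 13 changed sign, in 34 of 2607 values, all with adjusted p above the threshold. With single arrays left out, and in the added fits without the same mirtazapine array, Hmox1 ran from −0.24 to 0.10, Cxcl2 −0.28 to 0.01, Mki67 −0.20 to 0.01, Oprd1 −0.01 to 0.47, Trib3 −0.01 to 0.41, Pdgfra −0.49 to 0.19, Ddr2 −0.09 to 0.16, Rorb −0.13 to 0.42, Ctss −0.35 to 0.12, Kdr −0.11 to 0.02 and Atf3 −0.04 to 0.06. A second quantile normalization gave Hmox1 0.01, Gfap 0.05, Mki67 0.02 and Epor −0.03, and rescaling gave Hmox1 0.08. With 2 arrays a group, precision is limited by their number.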

Other observations

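The gene lists not described above gave the following differences of mirtazapine from the mean of the other 3 drugs, with 0 members called in limma in any of them (unadjusted counts in the same direction are given where they exceed 3). Over all tested probe sets 55.8% were negative and 44.1% positive. At an unadjusted p under 0.05 in limma, 11.5% of all were lower and 8.73% higher, beside which the unadjusted counts below are to be read. Of 38 cell cycle genes 29 were negative, 8 of them at an unadjusted p under 0.05, with a median of −0.14, beside −0.60 for mirtazapine and −0.45 for the other 3 drugs against control. Mcm4, a subunit of the replicative helicase, gave −0.56, and the proliferation marker Mki67 gave −0.09. Of 29 genes of glycolysis and hypoxia 18 were negative, 7 of them at an unadjusted p under 0.05, with a median of −0.08. Egln3, an oxygen-sensing prolyl hydroxylase, read 7.9 and 7.53 under mirtazapine, 7.98 to 8.32 under the other 3 drugs, and 8.91 and 8.59 in control. It gave −0.48 and fell by 1.03 against control (adjusted p = 0.0254), and the lactate transporter Slc16a3 gave 0.29. Of 19 astrocyte genes 13 were negative, 6 of them at an unadjusted p under 0.05, with a median of −0.11; the gap junction gene Gja1 gave −0.47 and S100b 0.26.

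In stress and sterol lists no median exceeded 0.08 in size. The integrated stress response list had a median of −0.05 over 32 genes, with Ddit3 at −0.30 and Trib3 at 0.20. Chaperones and heat shock genes had −0.08 over 23, with Hspa1b at −0.46 and Hyou1 at 0.12. NRF2 antioxidant genes had −0.07 over 19, with 17 negative, Taldo1 at −0.41 and Osgin1 at 0.00. Cholesterol synthesis genes had 0.00 over 27, with Ebp at −0.19 and Lss at 0.20. Of the 27, 3 had both mirtazapine arrays above all 6 others, beside 9.68% of all probe sets. In the brightest quintile, where the list's median level of 11.19 lies, 2.38% did. After rescaling to 1 slope the median was 0.22 and 17 of the 27 had both above, beside 2451 of all 18495 probe sets. A second quantile normalization gave a median of 0.07 and 7 such genes, beside 2149 of all probe sets. Lipid uptake and sterol transport had −0.06 over 18, with Nr1h3 at 0.26. Lysosome and autophagy had −0.06 over 28, with Atg5 at −0.35 and Tfeb at 0.25. Inflammatory mediators had −0.07 over 22, with the chemokine gene Ccl7 at 0.29. Apoptosis and p53 targets had −0.05 over 25, with Birc2 at −0.35 and Bik at 0.42.

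Neuronal lists were mixed. Excitatory lineage genes had a median of −0.08 over 18, with Rorb at 0.15, made of 0.42 on mirtazapine replicate 1 and −0.13 on replicate 2. Inhibitory lineage genes had 0.12 over 14, with 11 positive, 4 of them at an unadjusted p under 0.05, Nkx2-1 at 0.40 and Prox1 at −0.29. Synaptic vesicle genes had −0.03 over 20, with Sv2b at −0.51 (−0.11 and −0.90 on the single arrays) and Vamp2 at 0.12. Voltage-gated channels had −0.05 over 26, with Cacna2d3 at −0.52 and Kcnj3 at 0.18, where a second Kcnj3 probe set gave −0.25. Among the 20 glutamate receptor genes the kainate receptor gene Grik1 was the most positive at 0.18. Monoamine uptake and synthesis genes had 0.15 over 13.

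Among the other lists, Notch pathway genes had −0.04 over 22, with Jag1 at −0.47 and Heyl at 0.32. Radial glia and progenitor genes had −0.08 over 19, with Prom1 at −0.37 and Neurog1 at 0.22. Oligodendrocyte lineage genes had 0.10 over 13, with Pdgfra at −0.15 and Mog at 0.37. Microglia genes had 0.13 over 16, with 7 having both mirtazapine arrays above all 6 others, beside 9.68% of all probe sets and 16.9% to 20.9% in the 2 dimmest quintiles, where the list's median level of 6.88 lies, Cx3cr1 at 0.33 and Ctss at −0.11. Endothelial genes had 0.12 over 11, with Eng at 0.29 and Kdr at −0.04. Fibroblast and pericyte genes had 0.22 over 15, with 4 lower and 6 higher at an unadjusted p under 0.05. The erythroid list had 2 tested genes, Epor at 0.07 and Slc4a1 at 0.20. Growth factors and trophic receptors had 0.01 over 38, with Igf2 at 0.30. At an unadjusted p under 0.05, 4 of them were lower and 4 higher, near the shares of all probe sets.

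Small nucleolar RNAs, looked up after the first values were seen, had a median of −0.23 over 59 genes, −0.25 on mirtazapine replicate 1 and −0.19 on replicate 2. Their mean was 8.21 and 8.27 under mirtazapine, 8.18 to 8.62 under the other 3 drugs, 8.06 and 7.97 under duloxetine, and 8.55 and 8.34 in control, so citalopram replicate 1 and both duloxetine arrays were lower than either mirtazapine array.

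The sign of several of these medians depended on the scaling. After rescaling to 1 slope the medians were 0.02 for excitatory lineage, 0.15 for synaptic vesicle, 0.01 for voltage-gated channels, 0.11 for the integrated stress response, 0.07 for chaperones, 0.04 for NRF2, 0.10 for lipid uptake, 0.11 for lysosome and autophagy, and 0.01 for apoptosis and p53 genes, all of them negative without it. A second quantile normalization turned the Notch median to 0.06 and the growth factor median to −0.01. The other lists named in this section kept the sign of their median under rescaling, with the cholesterol list at 0.00 before it.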
